A study of Homo sapiens with 6 samples.

Results

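The 43 genes described here belong to the cellular response to low oxygen and to glycolysis. They were chosen by name: HIF subunits and the prolyl hydroxylases that control them (6 genes), other HIF target genes (13 genes), and genes of glucose uptake, glycolysis and lactate export (24 genes). All 43 were found among the 61541 genes of the deposited table. Bulk RNA-seq compared MDA231-LN with parental MDA-MB-231, with 3 libraries of total RNA for each line. Parental MDA-MB-231 is a human breast cancer line that lacks the hormone receptors and has mesenchymal traits. MDA231-LN is the labels' short name for MDA-MB-231-D3H2LN, a luciferase-carrying subline known to derive from a lymph node metastasis in mice. Cells of both lines grew in DMEM rich in glucose, with 10% serum, and no treatment or oxygen level is named in the labels, so the comparison is between lines and not between low and normal oxygen. Each kind of cell is represented by 1 line, so lymph node origin cannot be told apart from any other difference between the lines.

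HIF is a transcription factor made of an oxygen-sensitive alpha subunit (HIF1A or EPAS1) and a constant partner, ARNT. In oxygen the EGLN prolyl hydroxylases mark the alpha subunit, and the VHL ubiquitin ligase then has it degraded; when oxygen falls the alpha subunit persists and the pair binds a short DNA element beside its target genes. Many genes of glycolysis are such targets, as are genes for acid handling, collagen modification and mitophagy. The alpha subunits are controlled mainly at the protein level, which RNA counts do not show. Cancer cells often run glycolysis strongly also when oxygen is at hand.

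The libraries held 17661542 to 18882719 counted fragments in MDA231-LN and 16461578 to 19171017 in the parental line. The labels do not call the 3 libraries of each line separate cultures; p-values thus rest on a spread between samples that may be technical only. Libraries of the same line differed by more than sampling noise (chi-square over degrees of freedom 3.86 to 9.07), so none is a repeat of another's counts, and libraries of different lines differed by far more (93.2 to 109). Among 8 genes checked for the line itself, KRT8, KRT18, VIM, CD44 and EGFR were abundant in every library, PGR had 0 counts in MDA231-LN and 1 in the parental line, and ESR1 had 54 and 9. ERBB2 was at 89.8 and 90.4 CPM. Markers of other cells were low: 6 leukocyte genes summed to 1.18 to 2.97 CPM in MDA231-LN and 1.16 to 2.79 CPM in the parental line, with CD3E at 0. Of 5 endothelial genes, summing to 9.99 to 11.1 and 9.70 to 14.9 CPM, PECAM1 gave most and CDH5 had 3 and 0 counts. KDR (82 and 141 counts) and VWF (13 and 37 counts) were lower in MDA231-LN. The 6 fibroblast genes summed to 19.2 to 23.3 and 17.7 to 21.1 CPM, most of it COL1A1, with DCN at 2 and 0 counts. LUM and COL3A1 had 47 and 88 counts in MDA231-LN and 1 each in the parental line. PDGFRB went the other way, with 165 counts in MDA231-LN and 339 in the parental line. The part of such genes in the results below was not tested.

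Levels are given as CPM, the count of a gene relative to its library's size after scaling by the trimmed mean of M values (TMM), and differences as log2 fold change of MDA231-LN over parental ± SE from edgeR's quasi-likelihood test. A gene is said to have risen or fallen where MDA231-LN was higher or lower at an adjusted p under 0.05 (Benjamini-Hochberg over all 14176 genes tested). Such differences were common: 62.8% of all genes tested passed, 31.6% higher and 31.2% lower. Counts of members are read against these shares.

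Of the 43 members, 6 could not be measured. The counts left out every read that touched more than 1 annotated gene, and at least 90% of the exonic bases of these 6 lie inside another gene. They are HIF1A (92.5%), the prolyl hydroxylase genes EGLN1 (99%) and EGLN2 (100%), the aldolase genes ALDOA (98.9%) and ALDOC (100%), and the lactate dehydrogenase subunit gene LDHB (94.2%). EGLN2, ALDOC and LDHB were listed with 0 counts in all 6 libraries, EGLN1 with 2 counts and ALDOA with 22. Their listed values say nothing of expression. HIF1A kept 111, 75 and 57 counts in MDA231-LN against 31, 26 and 38 in parental libraries. These counts come only from parts of the gene, introns included, that no other gene covers, and no direction is drawn from them. The other 37 members were measured, and all 37 passed the filter on low counts. Some were counted over part of their exons only: 86.8% of the exonic bases of PLOD2 lie inside other genes, 74.7% of those of LOX, 49.9% of those of GPI, 41% of those of ANKRD37 and 35.7% of those of CA9.

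**Figure D1:**
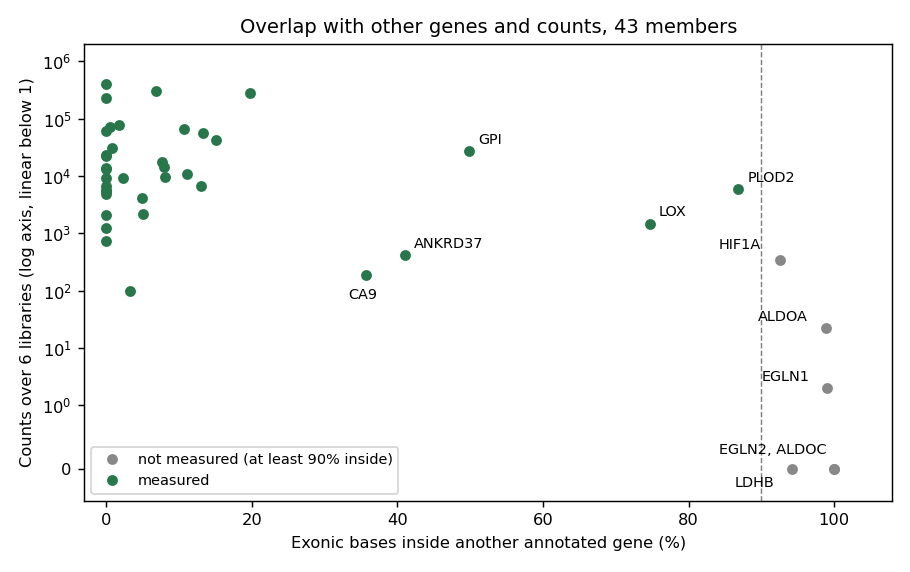
Counts over all 6 libraries (vertical axis, log scale, linear below 1) against the percentage of exonic bases inside another annotated gene (horizontal axis) for the 43 members. The 6 members right of the dashed line at 90% could not be measured: HIF1A has 338 counts over all libraries, ALDOA 22, EGLN1 2 and the others 0.

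Of the 37 measured members 15 rose, 13 fell and 9 did not pass, so that 75.7% passed, against 62.8% of all genes tested. The median log2 fold change of the members was 0.08, beside 0.02 for all genes tested. Few differences were large: 2 members rose and 2 fell at least 2-fold, where 13.0% of all genes tested rose and 7.53% fell by that much. These 4 were the acid-handling gene CA9 and the prolyl hydroxylase gene EGLN3, which rose, and ARNT and the collagen-modifying enzyme gene PLOD2, which fell. Of the 21 measured glycolysis genes 11 rose and 5 fell, and of the 13 other HIF targets 3 rose and 6 fell; the difference between these lists was not tested.

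**Figure D2:**
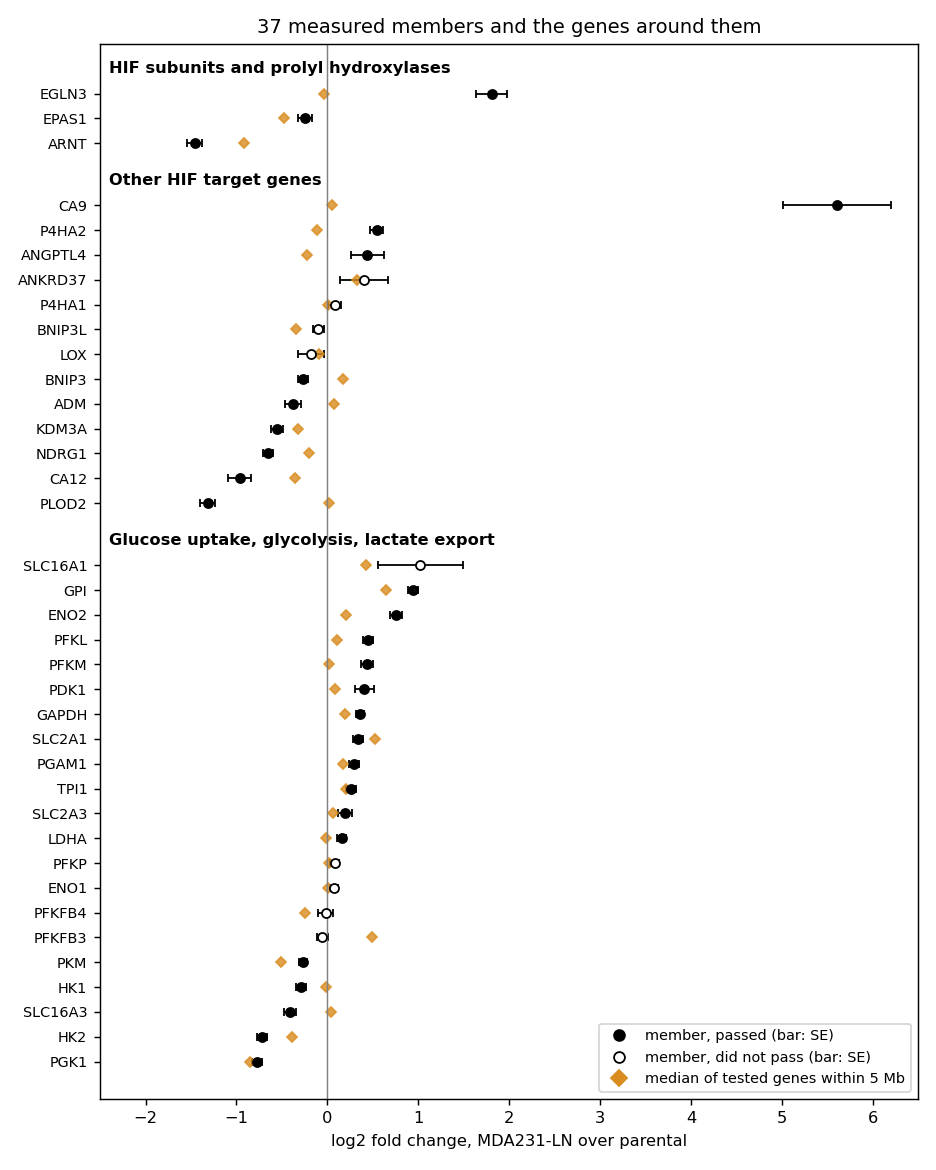
Log2 fold change of MDA231-LN over parental (horizontal axis; bars are SE) for the 37 measured members in 3 groups, with filled points for those that passed and open points for the others. Orange diamonds give the median log2 fold change of the other tested genes within 5 Mb; CA9, EGLN3, ARNT and PLOD2 lie farthest from 0 among members that passed, and PGK1 lies close to its diamond.

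The stretches upstream of these 4 genes are shown because HIF is known to bind a core element, ACGTG or GCGTG, near its targets, and these members differed most between the lines. Each is the 250 bases before the RefSeq transcript start (GRCh38.p14), written 5' to 3' on the gene's own strand, with matches to either core on either strand in capitals (the reverse complements are CACGT and CACGC). The windows are chr9:35673678-35673927 on the plus strand for CA9, and chr14:33951075-33951324, chr1:150876600-150876849 and chr3:146161185-146161434 on the minus strand for EGLN3, ARNT and PLOD2.
CA9: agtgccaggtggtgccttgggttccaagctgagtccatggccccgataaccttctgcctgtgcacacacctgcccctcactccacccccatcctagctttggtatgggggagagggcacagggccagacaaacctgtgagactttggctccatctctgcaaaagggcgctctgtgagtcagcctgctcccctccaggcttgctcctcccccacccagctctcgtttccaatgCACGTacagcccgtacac
EGLN3: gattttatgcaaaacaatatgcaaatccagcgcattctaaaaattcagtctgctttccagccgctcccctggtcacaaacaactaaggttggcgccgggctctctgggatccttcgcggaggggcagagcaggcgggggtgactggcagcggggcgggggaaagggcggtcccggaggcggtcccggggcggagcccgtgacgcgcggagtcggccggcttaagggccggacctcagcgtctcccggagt
ARNT: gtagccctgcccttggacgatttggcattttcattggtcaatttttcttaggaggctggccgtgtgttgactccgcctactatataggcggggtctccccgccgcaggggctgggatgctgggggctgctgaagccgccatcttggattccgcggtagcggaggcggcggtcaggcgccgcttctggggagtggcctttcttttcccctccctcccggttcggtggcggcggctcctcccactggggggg
PLOD2: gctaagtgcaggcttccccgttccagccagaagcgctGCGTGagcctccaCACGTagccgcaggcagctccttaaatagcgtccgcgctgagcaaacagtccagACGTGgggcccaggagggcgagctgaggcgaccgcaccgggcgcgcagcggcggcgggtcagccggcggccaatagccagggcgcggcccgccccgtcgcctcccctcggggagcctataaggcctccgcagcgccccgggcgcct
The CA9 window holds 1 match, starting 18 bases before the transcript start, and the PLOD2 window holds 3. No match lies in the EGLN3 or ARNT windows, which says only that these letters are not in this stretch. Of the 43 members 39 had a window in the RefSeq table, all but BNIP3L, NDRG1, SLC2A3 and SLC16A1. At least 1 match was found in 26 of the 39 (66.7%), against 43.2% of all 35116 windows and 54.1% of those of tested genes. ACGTG alone was found in 17 of 39 (43.6%), against 18.5% of all windows and 22% of those of tested genes. Many members were chosen because they are known HIF targets, so the choice may itself raise these shares, which were not tested. Windows of 7 of 14 members that rose held a match, as did 8 of 12 of those that fell. So did 6 of 7 of members that did not pass and 5 of 6 of those not measured. Other HIF targets held one in 10 of 11 windows and glycolysis genes in 12 of 22. BNIP3, with 6 matches, fell, and LDHA, with 5, rose. Where CACGTG occurs it was counted on both strands. A match is a description of the letters and not a bound site.

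Among the HIF subunits, ARNT had 29.3, 28.6 and 29.3 CPM in MDA231-LN libraries against 78.3, 73.7 and 88 CPM in parental libraries. Every MDA231-LN library lay far below every parental one, and ARNT fell 2.75-fold (log2 fold change -1.46 ± 0.08, adjusted p = 1.39e-14). ARNT is the shared partner of both alpha subunits and of the aryl hydrocarbon receptor. It lies on chromosome 1 from 150809713 to 150876708 (GRCh38, as are all positions), and the 150 other tested genes within 5 Mb had a median log2 fold change of -0.92. EPAS1, which encodes the alpha subunit HIF-2-alpha, had 43.6, 48.3 and 46.7 CPM in MDA231-LN libraries against 51, 56.2 and 57.1 CPM in parental libraries. The lines did not overlap but lay close: EPAS1 fell by 0.25 ± 0.08 on the log2 scale (adjusted p = 0.00733). This call was lost with upper-quartile scaling (adjusted p = 0.13) and without MDA231-LN replicate 1 (adjusted p = 0.0555).

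EGLN3, the prolyl hydroxylase that HIF itself induces, had 16.6, 17.4 and 16.9 CPM in MDA231-LN libraries against 4.45, 6.53 and 3.69 CPM in parental libraries. The MDA231-LN values were tightly grouped and all well above the parental ones, and EGLN3 rose 3.49-fold (log2 fold change 1.81 ± 0.17, adjusted p = 5.53e-10). Its annotated span, on chromosome 14 from 33924227 to 34462774, is far longer than the stretch from the gene's end to the RefSeq start used above, so counts may include transcripts that begin elsewhere; their part in the result was not tested. The 38 other tested genes around it had a median log2 fold change of -0.04.

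Carbonic anhydrases balance acid at the cell surface, and both members of that family moved, in opposite directions. CA9, a membrane enzyme widely used as a marker of hypoxic tumor regions, had 51, 55 and 77 counts in MDA231-LN libraries (2.61, 3.05 and 3.96 CPM) against 2, 1 and 0 counts in parental libraries. Parental cells gave next to no reads, and the ratio of counts, on scaled library sizes, was 54.4 with an exact 95% interval of 18.3 to 266 that covers counting error only. The difference passed (edgeR, adjusted p = 6.29e-09), at a level in MDA231-LN that was low beside most members. Its size rests on the few parental counts: the fitted log2 fold change was 5.60 with all libraries, 6.48 without parental replicate 1 and 4.997 without parental replicate 3, and the call held in both. CA9 lies on chromosome 9 from 35673928 to 35681159 and overlaps ARHGEF39. CA12, the other membrane carbonic anhydrase, had 15.6, 10.9 and 13.1 CPM in MDA231-LN libraries against 24.4, 24.1 and 28.7 CPM in parental libraries. The ranges stood apart, and CA12 fell 1.95-fold (log2 fold change -0.96 ± 0.12, adjusted p = 1.89e-07).

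The enzymes that modify collagen chains, which HIF is known to induce together, did not move together. PLOD2, a lysyl hydroxylase, had 32.9, 32.9 and 30.3 CPM in MDA231-LN libraries against 76.7, 86.6 and 76.3 CPM in parental libraries. With the lines far apart, it fell 2.49-fold (log2 fold change -1.32 ± 0.08, adjusted p = 6.88e-14). PLOD2 lies on chromosome 3 from 146069440 to 146163653; the median of the 31 tested genes within 5 Mb was 0.02, and that of the 2 within 2 Mb was -1.12. P4HA2, a subunit of collagen prolyl 4-hydroxylase, had 70.9, 70.6 and 73.8 CPM in MDA231-LN libraries against 48.2, 53 and 46.6 CPM in parental libraries, and rose 1.46-fold (log2 fold change 0.54 ± 0.07, adjusted p = 3.26e-07). P4HA1, its sister subunit, was at 89.5 ± 6.77 CPM in MDA231-LN and 84.7 ± 6.97 CPM in the parental line (SD, n = 3 each) and did not pass. LOX, which crosslinks collagen, was at 12.9 ± 1.06 and 14.6 ± 2.91 CPM and did not pass either, but did, as lower, without parental replicate 3 (adjusted p = 0.0295).

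Of the remaining HIF targets, 4 fell, and the largest of these falls was that of NDRG1, a stress-induced gene described as a suppressor of metastasis. It had 127, 128 and 123 CPM in MDA231-LN libraries against 190, 206 and 200 CPM in parental libraries, 1.58-fold lower (adjusted p = 1.35e-10). KDM3A, a histone demethylase, fell 1.47-fold, with 65 to 73.1 CPM in MDA231-LN libraries and 94.4 to 106 CPM in parental libraries. ADM, which encodes the vasodilator peptide adrenomedullin, fell 1.3-fold, and the mitophagy receptor gene BNIP3 1.21-fold. Its relative BNIP3L, at 128 ± 3.78 and 137 ± 6.55 CPM, did not pass. ANGPTL4, a secreted inhibitor of lipoprotein lipase, rose 1.35-fold at a low level, with 7.17, 7.93 and 8.43 CPM in MDA231-LN libraries against 7.01, 5.13 and 5.25 CPM in parental libraries. Its highest parental and lowest MDA231-LN value nearly touch, and the call (adjusted p = 0.0374) was lost with DESeq2 (adjusted p = 0.0944) and without MDA231-LN replicate 2 or 3 or parental replicate 2 or 3 (adjusted p = 0.0874, 0.123, 0.12 and 0.113). ANKRD37, a small ankyrin-repeat gene, overlapped between the lines and did not pass (4.34 ± 0.914 and 3.28 ± 1.29 CPM), but did without parental replicate 1 (adjusted p = 0.0316). Summed, the 13 other HIF targets were at 804 ± 20.4 CPM in MDA231-LN and 1002 ± 33.3 CPM in the parental line (SD, n = 3 each), with 65.8% of that from BNIP3, NDRG1, BNIP3L and P4HA1.

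**Figure D3:**
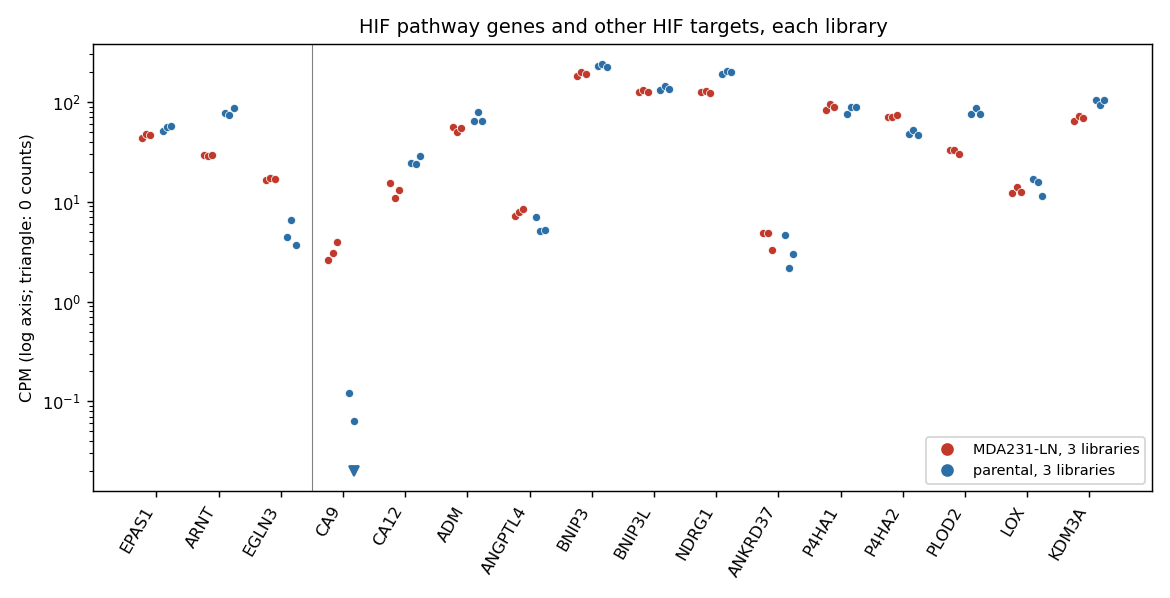
CPM in each library (vertical axis, log scale) for the measured HIF pathway genes, left of the grey line, and the other HIF targets, with the 3 MDA231-LN libraries in red left of the 3 parental libraries in blue for each gene; a triangle marks 0 counts. The share of all genes without overlap between the lines was not computed, so no count of genes without overlap is given here. Among those shown, EGLN3 and CA9 were higher and ARNT, CA12 and PLOD2 lower in every MDA231-LN library than in any parental one.

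The 21 measured glycolysis genes together took 1.62 ± 0.00969% of the scaled library size in MDA231-LN and 1.58 ± 0.0622% in the parental line (SD, n = 3 each), and 70.2% of that came from PKM, ENO1, GAPDH and LDHA. The summed level thus differed by 1.02-fold, which is within the parental spread, while single steps moved both ways and none by 2-fold among those that passed. Glucose enters through transporters. SLC2A1, which encodes GLUT1, had 697, 686 and 685 CPM in MDA231-LN libraries against 538, 583 and 516 CPM in parental libraries. All MDA231-LN values were higher, and SLC2A1 rose 1.26-fold (log2 fold change 0.34 ± 0.05, adjusted p = 3.8e-06); the 116 tested genes around it, on chromosome 1 from 42925353 to 42958893, had a median of 0.53. SLC2A3, which encodes GLUT3, rose 1.14-fold (adjusted p = 0.0324). It had 51.5, 47.5 and 46.5 CPM in MDA231-LN libraries against 42.6, 41.9 and 42.7 CPM in parental libraries. This call was lost under 8 alternatives. Among these 8 were DESeq2 (adjusted p = 0.0565) and the fits without MDA231-LN replicate 1 or 2 or parental replicate 1 or 2 (0.162, 0.0562, 0.0714 and 0.0729).

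Hexokinases, which trap glucose by phosphorylation, fell at the same time. HK2, the inducible form that HIF is known to raise, had 169, 166 and 157 CPM in MDA231-LN libraries against 273, 261 and 274 CPM in parental libraries. The ranges were far apart, and HK2 fell 1.64-fold (log2 fold change -0.72 ± 0.06, adjusted p = 1.46e-11). It lies on chromosome 2 from 74834127 to 74893359, among 67 tested genes with a median of -0.39. HK1, the constitutive form, fell 1.22-fold (253 ± 5.40 CPM in MDA231-LN and 309 ± 20.8 CPM in the parental line). The next enzyme, encoded by GPI, isomerises glucose 6-phosphate. GPI had 328, 314 and 320 CPM in MDA231-LN libraries against 170, 161 and 169 CPM in parental libraries. This was the largest difference among glycolysis genes that passed: GPI rose 1.93-fold (log2 fold change 0.94 ± 0.05, adjusted p = 3.34e-14). Genes around GPI, on chromosome 19 from 34359480 to 34402413, had a median of 0.65 over 118 tested genes, of which 78 rose and 3 fell.

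Phosphofructokinase, the main control point of the pathway, has liver, muscle and platelet forms. PFKL (136, 142 and 145 CPM in MDA231-LN libraries against 105, 103 and 104 CPM in parental libraries) rose 1.36-fold, and PFKM rose 1.35-fold (114 ± 4.55 CPM in MDA231-LN and 84.3 ± 4.94 CPM in the parental line). PFKP was at 538 ± 7.88 and 508 ± 15.9 CPM and did not pass. PFKFB3 and PFKFB4, whose products make the activator of phosphofructokinase and which are known HIF targets, did not pass either, with log2 fold changes of -0.06 ± 0.06 and -0.02 ± 0.09.

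In the lower part of the pathway TPI1, GAPDH and PGAM1 rose 1.2-fold, 1.28-fold and 1.23-fold. GAPDH, often used as a reference gene, was at 2915 ± 53.5 CPM in MDA231-LN and 2275 ± 49.3 CPM in the parental line (adjusted p = 1.82e-07), with no overlap between the libraries. PGK1, whose product makes the first ATP of this stage and which is a textbook HIF target, went the other way. It had 527, 544 and 559 CPM in MDA231-LN libraries against 938, 972 and 879 CPM in parental libraries, a 1.71-fold fall that left the lines far apart (log2 fold change -0.77 ± 0.05, adjusted p = 9.7e-13). PGK1 is on the X chromosome from 77910739 to 78129295, and the 19 tested genes within 5 Mb had a median of -0.85, so PGK1 differed about as much as the genes around it. ENO2, the neuronal enolase gene, had 103, 104 and 115 CPM in MDA231-LN libraries against 62.8, 64.5 and 62.8 CPM in parental libraries and rose 1.69-fold (log2 fold change 0.76 ± 0.07, adjusted p = 1.56e-10). ENO1, the common enolase, overlapped between the lines and did not pass (2835 ± 56.2 and 2697 ± 98.7 CPM). ENO2, TPI1 and GAPDH lie within 1 region of chromosome 12, between 6534512 and 6923698, and share most of their neighbours, whose median was 0.20; they are not separate observations of a chromosome region. PKM, the pyruvate kinase gene, fell 1.21-fold (3358 ± 16.2 CPM in MDA231-LN and 4050.4 ± 182 CPM in the parental line), among 77 tested genes with a median of -0.51.

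**Figure D4:**
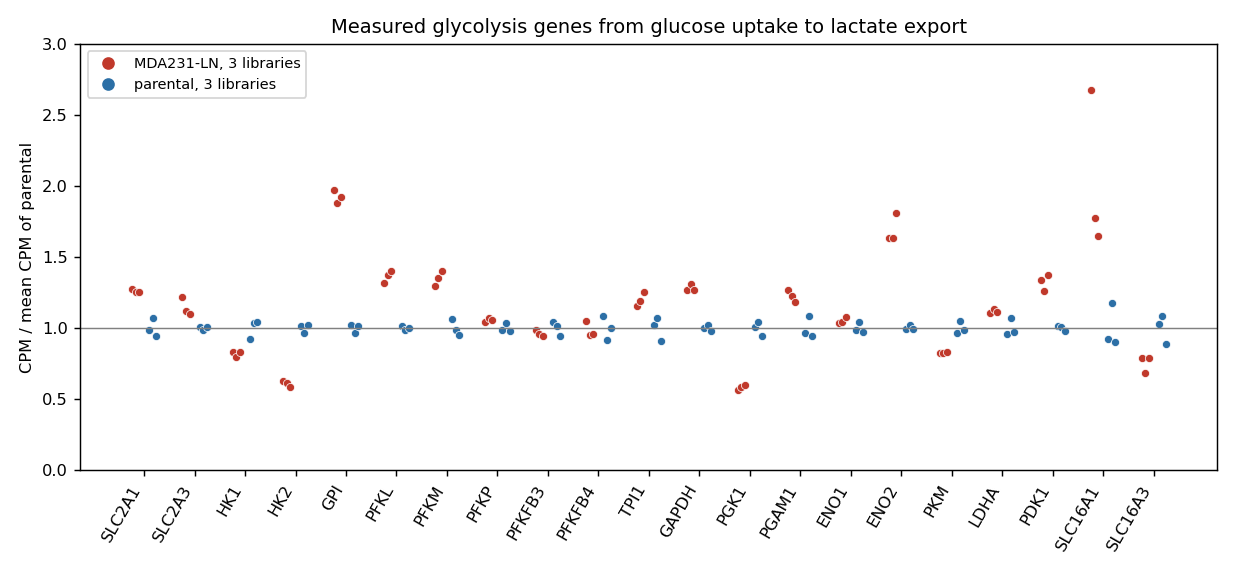
CPM of each library divided by the mean CPM of the parental libraries (vertical axis, linear) for the 21 measured glycolysis genes from glucose uptake to lactate export, with MDA231-LN in red left of parental in blue. GPI and ENO2 stand highest among the genes that passed and HK2 and PGK1 lowest; SLC16A1, which did not pass, has 9 to 31 counts per library.

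At the end of the pathway, LDHA, which turns pyruvate into lactate, had 2249, 2301 and 2263 CPM in MDA231-LN libraries against 1953, 2175 and 1978 CPM in parental libraries. The gap between lines was small, and LDHA rose 1.12-fold (log2 fold change 0.16 ± 0.05, adjusted p = 0.00726), a call lost without parental replicate 1 (adjusted p = 0.0572). PDK1, a kinase that inhibits pyruvate dehydrogenase, had 23.4, 22.1 and 24 CPM in MDA231-LN libraries against 17.7, 17.6 and 17.1 CPM in parental libraries. Both sets were tight, and PDK1 rose 1.33-fold (log2 fold change 0.41 ± 0.10, adjusted p = 0.00142). SLC16A3, which encodes the lactate exporter MCT4, fell 1.33-fold, with 350, 304 and 350 CPM in MDA231-LN libraries against 457, 482 and 395 CPM in parental libraries (adjusted p = 5.92e-06). SLC16A1, which encodes MCT1, had very few counts in either line: 31, 19 and 19 in MDA231-LN libraries against 9, 11 and 10 in parental libraries, with an adjusted p of 0.0581.

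Ratios between related genes within a library do not depend on scaling, although gene length sets their absolute size. The HK2 to HK1 ratio of counts was 0.662, 0.672 and 0.614 in MDA231-LN libraries against 0.96, 0.813 and 0.854 in parental libraries. It was therefore lower in MDA231-LN without overlap, although both genes fell. ENO2 to ENO1 was 0.0378 ± 0.00158 in MDA231-LN and 0.0235 ± 0.000482 in the parental line (SD, n = 3 each), 1.61-fold higher and again without overlap. PFKP to PFKL was 3.81 ± 0.0941 and 4.9 ± 0.2, and PFKP to PFKM 4.73 ± 0.163 and 6.04 ± 0.408, both lower in MDA231-LN without overlap. SLC2A3 to SLC2A1 and PFKFB4 to PFKFB3 overlapped between the lines. The ratios are given as a description: an exact permutation test of 3 against 3 libraries cannot go below 0.10, and no other test was run on them.

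**Figure D5:**
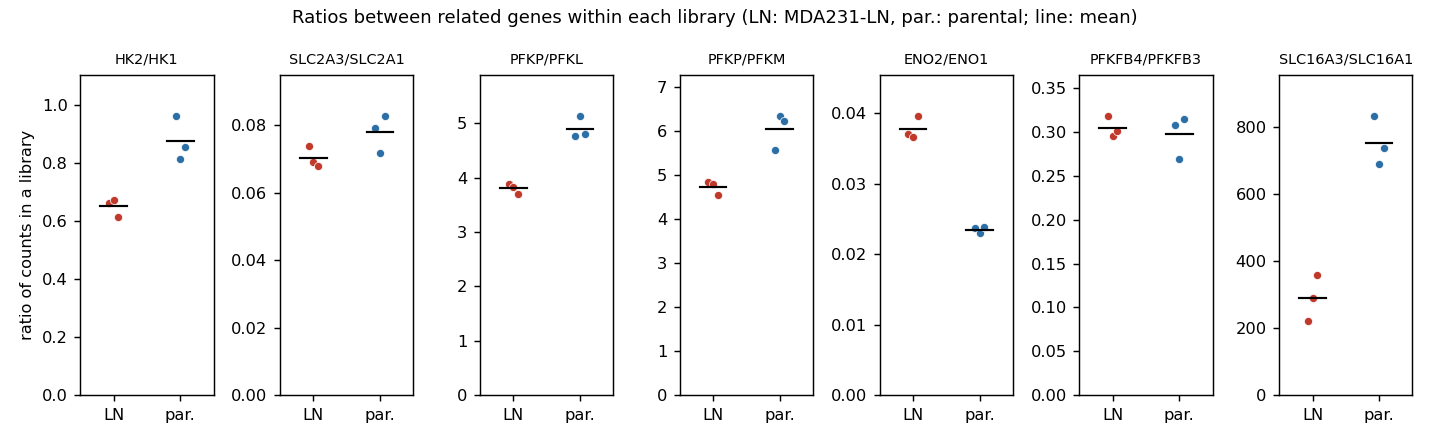
Ratio of counts between related genes within each library (vertical axes, linear from 0), with MDA231-LN left of parental and a line at each mean of 3 libraries. HK2/HK1 and both PFKP ratios are lower in every MDA231-LN library than in any parental one and ENO2/ENO1 higher; SLC2A3/SLC2A1 and PFKFB4/PFKFB3 overlap, and SLC16A3/SLC16A1 rests on 9 to 31 counts of SLC16A1.

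Members were also set beside the genes around them on the chromosome. Of the 28 members that passed, 20 (71.4%) had the sign of the median of the tested genes within 5 Mb, against 71.6% of all 8899 genes that passed and had such neighbours. Over the 37 members the log2 fold change and this median had a Pearson r of 0.38 and a Spearman rho of 0.56, beside 0.28 and 0.44 over 14168 tested genes. Members that share a region share neighbours, so these values only describe the libraries. The 8 members that passed with the opposite sign were EGLN3, ADM, ANGPTL4, BNIP3, P4HA2, PLOD2, LDHA and SLC16A3. Within 2 Mb, P4HA2, PLOD2 and LDHA had the sign of their neighbours' median, so that the count was 23 of 28 (82.1%), against 72.9% of 8892 genes that passed. Whether members and all genes differ in this was not tested.

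Other genes of the same pathways were taken from 5 lists. Of all genes tested 62.8% passed. Of tested genes in the lists, 55.6% passed for HIF degradation and cofactors and 72.7% for further hypoxia-induced genes. The share was 75% around pyruvate entry, 57.1% in the pentose phosphate pathway and 100% in gluconeogenesis and glycogen. Whether any list differs from all genes was not tested. Of 9 tested genes of HIF degradation and cofactors, 2 rose and 3 fell, with a median log2 fold change of -0.10. VHL, the subunit that recognises hydroxylated HIF, fell 1.48-fold (23.3 ± 2.83 CPM in MDA231-LN and 34.6 ± 1.85 CPM in the parental line, adjusted p = 2.05e-05), and ARNT2, a relative of ARNT, fell 1.34-fold (46.1 ± 3.88 and 61.6 ± 4.44 CPM). HIF3A was listed at 0 in all libraries and CITED2 could not be measured. Of the exonic bases of VHL 64.9% lie inside another gene.

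Further hypoxia-induced genes went both ways, 9 rising and 7 falling of 22 tested, with a median of -0.01. DDIT4, an inhibitor of mTORC1 also known as REDD1, had 80.1, 80.7 and 89.4 CPM in MDA231-LN libraries against 320, 317 and 264 CPM in parental libraries. All libraries of the lines were far apart, and DDIT4 fell 3.6-fold (log2 fold change -1.85 ± 0.07, adjusted p = 6.69e-18). PPP1R3C, a glycogen-targeting phosphatase subunit, rose 6.1-fold at a low level (5.99 ± 0.416 CPM in MDA231-LN and 0.964 ± 0.422 CPM in the parental line), and PPFIA4, a liprin gene, rose 2.09-fold. Tested genes within 5 Mb had medians of 0.03 around DDIT4, 0.05 around PPP1R3C and -0.14 around PPFIA4. HILPDA and RORA could not be measured.

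Around pyruvate entry into mitochondria, 4 of 12 tested genes rose and 5 fell (median -0.13). PDK3, another pyruvate dehydrogenase kinase, rose 2.07-fold (21.7 ± 3.37 CPM in MDA231-LN and 10.5 ± 1.11 CPM in the parental line). DLAT, the acetyltransferase subunit of pyruvate dehydrogenase, fell 2.06-fold (89.7 ± 2.20 and 184 ± 6.80 CPM). Tested genes within 5 Mb had a median of 0.31 around PDK3 and -0.80 around DLAT. In the pentose phosphate pathway 4 of 7 tested genes fell and 0 rose, at a median of -0.29. Of all genes tested 31.2% fell and 31.6% rose. PGLS, which hydrolyses 6-phosphogluconolactone, fell 1.83-fold (44.2 ± 1.81 CPM in MDA231-LN and 81 ± 5.60 CPM in the parental line, adjusted p = 8.7e-11). TALDO1, RPE and RPIA did not pass. Of 12 listed genes of gluconeogenesis and glycogen, 2 could not be measured and 3 were not tested. The 7 tested all passed, 2 rising and 5 falling, where 62.8% of all genes tested passed. FBP1, the gluconeogenic enzyme that opposes phosphofructokinase, fell 2.96-fold at a low level (4.53 ± 0.854 CPM in MDA231-LN and 13.4 ± 1.29 CPM in the parental line, adjusted p = 8.74e-09). The median of tested genes within 5 Mb of FBP1 was 0.05. PCK1 and G6PC1 had 5 counts or fewer over all libraries, and PYGM had 18 in MDA231-LN and 7 in the parental line. PCK2 and FBP2 could not be measured.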

How the data were processed

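Per the submitters' processing notes, STAR aligned the reads on GRCh38 (its version is not given in the sources used here); the notes also name DESeq2, whose output was not used here. The deposited counts are raw fragments per gene. Per the file headers, featureCounts 2.0.1 counted them on Ensembl release 105 annotation: whole gene bodies including introns, without strand. Under that tool's defaults, a read touching several genes, or aligning to several places, is not counted, which can lower genes with close copies or pseudogenes, such as GAPDH, LDHA, PGAM1 and ENO1. In bulk RNA, fewer cells of a kind and less RNA per cell cannot be told apart.

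Groups came from the labels. Counts were tested with edgeR 4.0.16 in R 4.3.3 (TMM scaling, filterByExpr, quasi-likelihood test, Benjamini-Hochberg adjustment over 14176 genes); the SE is the log2 fold change divided by the square root of F. The procedure was checked on simulated data. Symbols were found for 99.7% of genes, and exons came from GENCODE 29, also GRCh38 but another annotation than that of the counts: 16 of the 43 members have the same span in both, so shares of exonic bases inside other genes are approximate. The members and lists were chosen with earlier results of these data known. Members are all accounted for; those that passed at 2-fold or more, and a fixed set of familiar genes (HIF1A, EPAS1, CA9, SLC2A1, HK2, LDHA, LDHB, PDK1, PGK1), get values in every library, and the 4 that changed most get promoters. Each other list names up to 4 genes that passed at 2-fold, or else up to 2 with the smallest adjusted p; examples beyond these, and every further value in single libraries, were chosen after the values were seen. Values of some listed genes are not reported here. The settings changed in turn were the scaling (RLE, upper quartile), the filter (none, 1 CPM in 3 libraries), a replicate block, each library left out, the tool (DESeq2 1.42.0, limma-voom from limma 3.58.1), an adjusted p under 0.01, a 2-fold minimum, leaving out members over 50% inside other genes, and a window of 2 Mb. Intervals cover counting error only. Other steps ran in Python 3.11.15 (scipy 1.17.1, pandas 2.3.3, figures by matplotlib 3.10.9).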

Additional observations from a re-analysis of the deposited data

How the results depend on the processing

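Of the 28 members that passed, 24 kept direction and call under all 14 alternatives tried for a single gene, and 0 reversed. EPAS1, ANGPTL4, SLC2A3 and LDHA lost their calls under some; ANGPTL4 did so without MDA231-LN replicate 2 or 3 (adjusted p = 0.0874 and 0.123) and without parental replicate 2 or 3 (0.12 and 0.113), within 0.0107 to 0.123 over all alternatives. SLC2A3 lost it without MDA231-LN replicate 1 or 2 and without parental replicate 1 or 2 (0.0562 to 0.162), within 0.0014 to 0.162 over all. Over all alternatives the adjusted p of EPAS1 was 0.00386 to 0.13 and that of LDHA 1.4e-05 to 0.0572. Of the 9 members that did not pass, 6 gained a call under some alternative: PFKP, ENO1, P4HA1 and SLC16A1 with upper-quartile scaling, SLC16A1 also with a filter of 1 CPM, ANKRD37 without parental replicate 1 and LOX without parental replicate 3. With upper-quartile scaling the median over all genes tested was 0.13 in place of 0.02 (log2), and 19 members rose and 12 fell. Under it BNIP3L, PFKFB3 and PFKFB4, which did not pass, changed sign to 0.014, 0.056 and 0.091, and PFKFB4 ranged from -0.086 to 0.035 when a library was left out, with the sign changed without MDA231-LN replicate 2 or parental replicate 1. Among HIF subunits and prolyl hydroxylases, 1 gene fell with upper-quartile scaling and 1 to 2 fell when a library was left out, EPAS1 being lost without MDA231-LN replicate 1. At a minimum of 2-fold, 2 members rose and 2 fell (1 and 1 among HIF subunits and prolyl hydroxylases, 1 and 1 among other HIF targets, 0 and 0 in glycolysis), and 1848 and 1068 of all genes. Same-numbered libraries did not deviate together (correlations of -0.0526 to 0.00241), so the numbers do not pair them; with the replicate block 14 members rose and 13 fell, and the call that ended was that of SLC2A3 (adjusted p = 0.0555). With a window of 2 Mb, 2 of 37 medians of neighbouring genes moved by over 0.446 (0.5 of the interquartile range of all genes), those of PLOD2 (-1.12) and PFKP (0.81), and 4 changed sign, those of P4HA2 (0.029), PLOD2, ENO1 (-0.034) and LDHA (0.054). SLC16A1 and ANKRD37 have few counts, as does CA9 in the parental line. The SEs of the log2 fold changes of SLC16A1, ANKRD37 and CA9 (0.46, 0.27 and 0.59) are among the widest of the members.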
